A study of Mus musculus with 32 samples.

Results

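The 74 genes described here were high in mouse synovium at MMS D14 and, on the mean over the groups R1 and R2, stayed above the Control level. They were chosen from 1178 genes of the deposited synovium table by their mean FPKM (a level scaled by sequencing depth and gene length). A gene entered when the log2 change of its mean FPKM + 1 from Control was at least 1 in MMS D14, and when the mean of its changes in R1 and R2 was at least 50% of that change. Of the 296 genes (25.1% of the table) with such a change in MMS D14, these 74 are 25%. The other 222, which passed the first limit but kept less of the change, serve as the comparison below and are called raised but not kept. Since the changes from Control in MMS D14, R1 and R2 chose the 74 genes, these changes are given as a description, with no test.

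RNA from synovium and cartilage of C57BL/6 mice was sequenced, with control animals set beside a model called MMS in the labels. The 18 synovium samples fall into 6 groups of n = 3: Control, the model at MMS D3, at MMS D7 and at MMS D14, and the groups R1 and R2. The 14 cartilage samples are n = 2 per group, with MMS D28 as an added group. What MMS, R1 and R2 stand for is not written out, and the labels give no unit for the numbers after D, no genotype, age or sex, and do not say whether replicates are separate animals, so p-values measure only the spread between these samples. All groups are used under their label names.

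The synovium is the soft tissue that lines a joint, and its fibroblasts make the collagens, proteoglycans and glycoproteins of the joint lining and capsule, together with the proteases that take this matrix apart. Matrix is laid down in steps: collagen chains are secreted, small leucine-rich proteoglycans and matricellular proteins guide how the fibrils form and how cells attach, microfibrils organise elastic fibres, and lysyl oxidases cross-link the result. Metalloproteinases, cathepsins and membrane-bound serine proteases then remodel it. When a joint tissue scars, genes of all these steps are commonly raised together.

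The 2 tables list selected genes, and how they were selected is not stated. Depth is unknown, since the tables hold no read counts. Across the 1178 synovium genes the median log2 change from Control was -0.33, -0.65 and -1.08 at MMS D3, D7 and D14 and -0.38 in both R1 and R2. The choice itself fixed that the 74 genes rise in MMS D14 and in the mean of R1 and R2. Nothing is therefore read from their rise against the table medians there. The labelled tissue was checked on marker genes: 4 of 7 lining fibroblast markers are listed in the synovium table, and their summed FPKM ran from 599.6 to 769 in Control, 327 to 419 in MMS D14, then 1097 to 1391 in R1 and 909 to 1870.2 in R2. The listed markers did not share this rise evenly. Clic5 had means of 123 in Control, 139.6 in R1 and 108.7 in R2, and Hbegf 162, 268 and 294. Gsn, the only sublining fibroblast marker listed, had 4614 to 5334 in Control, 2827 to 3273 in R1 and 2885 to 3440 in R2. All 22 adipocyte markers are listed, with a summed FPKM of 40712 to 48881 in Control, 7334 to 12456 in MMS D14, then 21098 to 22790 in R1 and 20344 to 22746 in R2. None of those 22 markers is at 0 in any group. Of the skeletal muscle markers, Eno3 and Myl1 are listed. Their summed FPKM was 38.25 to 137 in Control and 36.8 to 191 in MMS D14. It was 24.6 to 31.55 in MMS D3, 21.6 to 27.5 in MMS D7, 17 to 24.45 in R1 and 20.45 to 28.3 in R2. In bulk tissue, fewer cells of a type and less RNA per cell cannot be told apart, and the part of tissue makeup in the results below was not tested. A set of 5 synovium libraries, replicate 3 of every group but R1, is called the 5 that stand apart. Of the 1178 genes, 87 are lowest in the library of this set within each of the 5 groups, 15 of the 74 among them. A further 63 genes, 2 of the 74 among them, are highest there. This is a rank within groups. Only 2 genes, 1 of the 74 among them, had all 5 below the other 13, and 0 had all 5 above. Results that move without these libraries are given in both ways.

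The median of the 74 genes was higher with each later MMS group and lay part of the way back in R1 and R2. Their median log2 change from Control was 0.42, 1.07 and 1.62 at MMS D3, D7 and D14, then 1.06 in R1 and 1.13 in R2. The genes raised but not kept had medians of 0.81, 1.29, 1.68, 0.49 and 0.44 in the same order. The share of the MMS D14 change still present in R1 and R2 had a median of 60.2% over the 74 genes and ran from 50.1% to 97.0%. It was at least 60% in 38 genes, at least 75% in 11 and at least 90% in 4, namely Angptl1, Uts2r, Mfap2 and Pamr1. The highest group mean was that of MMS D14 in 70 of the 74, and the means increased from MMS D3 through MMS D7 to MMS D14 in 73. Among the 222 genes raised but not kept these numbers were 213 and 196, so neither trait is particular to the 74. Over the whole table, MMS D14 was the highest of the groups other than Control in 27.3%, and the means increased in this order in 25.6%. Their summed FPKM made up 1.15% to 1.27% of the summed table in Control, 10.4% to 10.6% in MMS D14, then 4.23% to 5.15% in R1 and 4.20% to 5.30% in R2. The summed table was itself smaller in MMS D14 (70104.5 to 74664) than in Control (114194 to 132996), which raises these percentages.

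**Figure D1:**
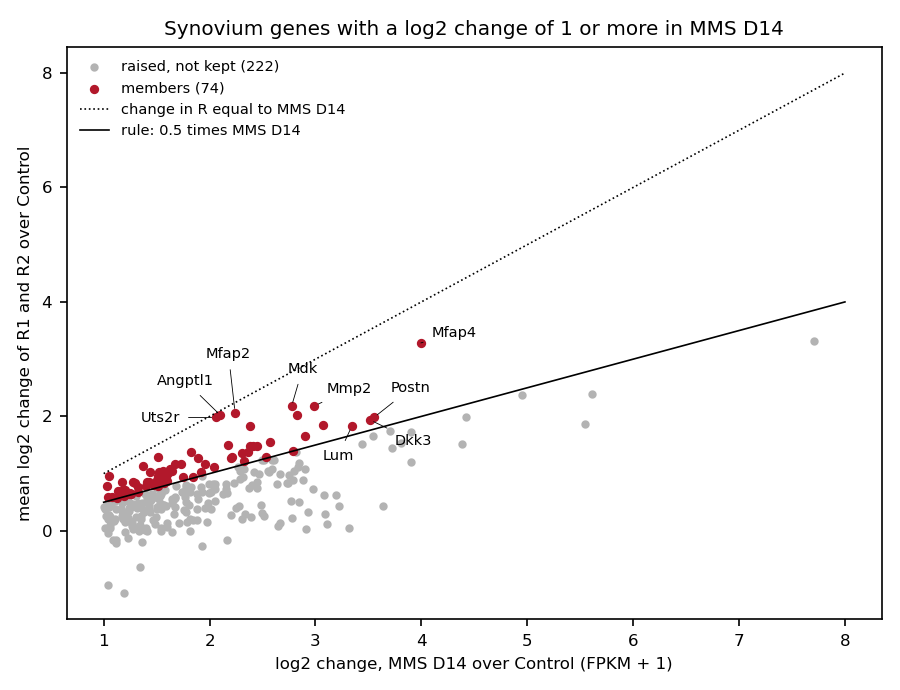
Each point is 1 of the 296 synovium genes with a log2 change of at least 1 in MMS D14; the x axis is the log2 change of mean FPKM + 1 from Control in MMS D14 and the y axis the mean of the changes in R1 and R2. The 74 genes at or above the solid line (50% of the MMS D14 change) are red, the 222 below it grey, and Angptl1 and Uts2r lie nearest to the dotted line of equal change.

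In R1, every sample was above every Control sample for 71 of the 74 genes, against 21.8% of the table, and in R2 for 65, against 18.6% of the table. Both contrasts were used to choose the genes, so nothing is read from these counts. The 3 exceptions in R1 were Socs1, Slc40a1 and Fam177a, the last 2 named after their values were seen. Every R1 sample was below every MMS D14 sample for 53 of the 74 (26% of the table), and every R2 sample for 47 (25% of the table). The rule used these samples too, so nothing is read from these counts either. R1 alone would have kept 64 of the 74 and R2 alone 62, with 52 kept by each of them. Genes close to the limits show how little separates the 2 sides. C1qtnf6, Fxyd6 and Loxl2 kept 50.1%, 50.7% and 50.7% and are in, while Fhl2, Grb10 and Ppic kept 49.7%, 49.5% and 49.4% and are out. At the other limit Mamdc2, Agpat4 and Pamr1 had changes of 1.03, 1.04 and 1.05 in MMS D14 and are in, and Cacna1g, Abtb2 and Fat4 had 0.98, 0.84 and 0.72 and are out.

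**Figure D2:**
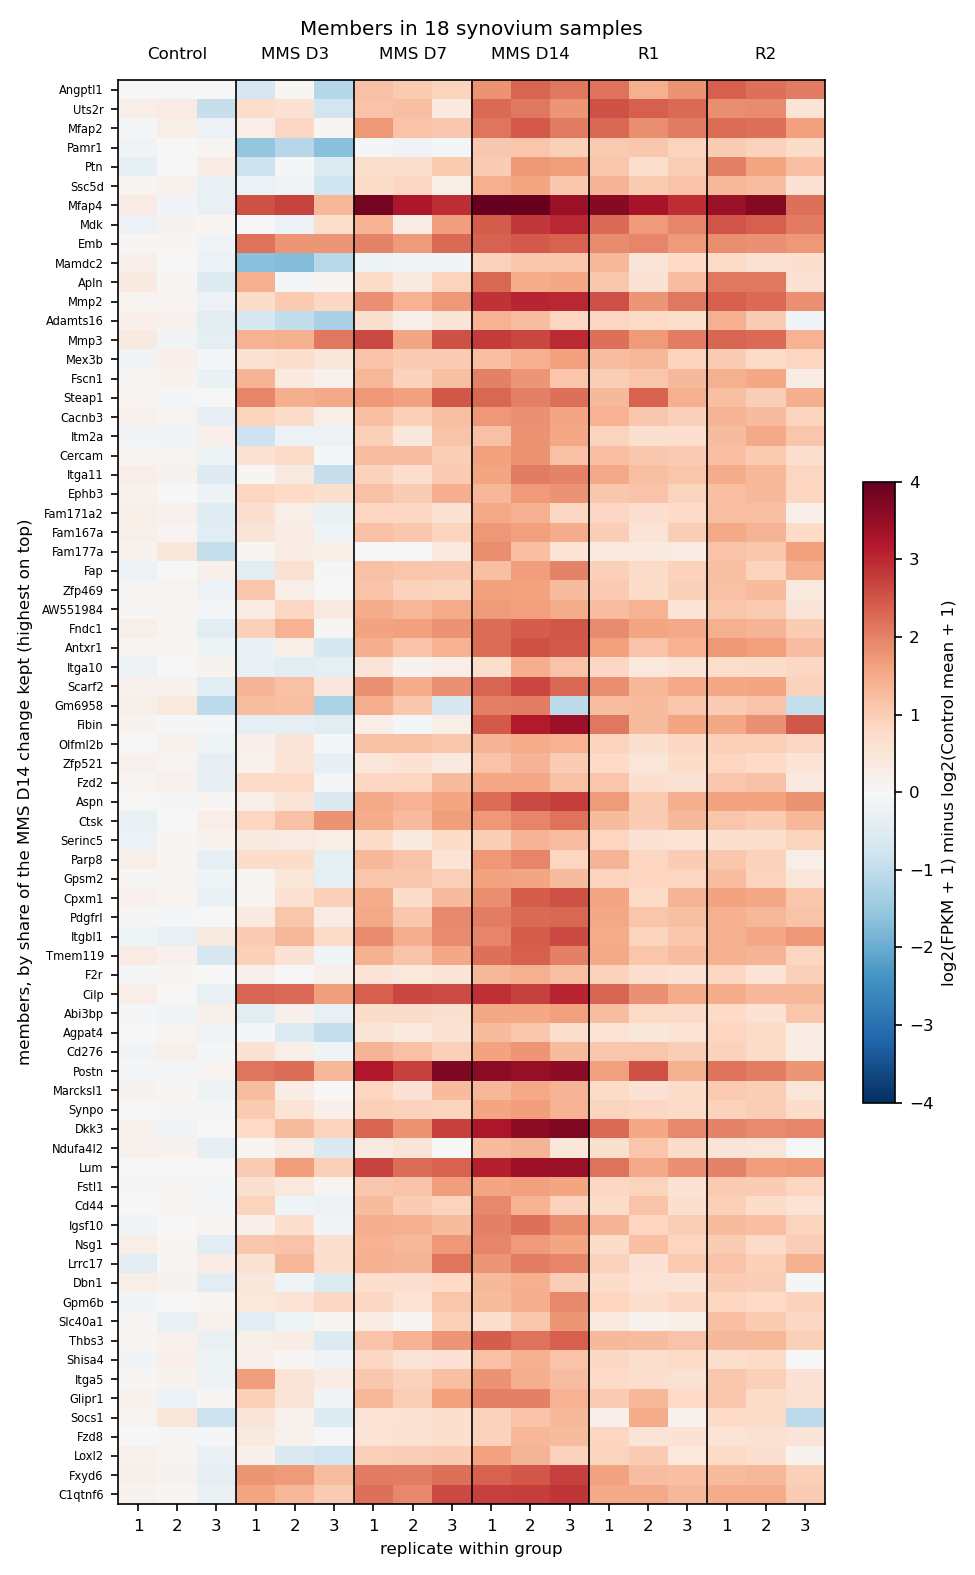
Each row is 1 of the 74 genes, ordered by the share of the MMS D14 change kept, and each column 1 of the 18 synovium samples, grouped by label. Colour gives log2(FPKM + 1) minus log2 of the Control mean + 1, from blue (lower) to red (higher): MMS D14 columns are the darkest red for most genes, and Pamr1 and Mamdc2 are blue in MMS D3.

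By their products, the 74 genes fall into 13 structural proteins of the matrix, 8 matrix enzymes and their homologues, 11 secreted signals and modulators, 26 receptors and other membrane proteins, 5 proteins of the cytoskeleton and cell shape, and 11 intracellular regulators and others. This sorting was made by hand after the genes were known. The median share kept was 58.0% for the structural proteins, 67.4% for the enzymes, 60.4% for the secreted signals, 59.8% for the membrane proteins, 55.5% for the cytoskeletal group and 60.5% for the rest.

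Among the structural proteins, the microfibril genes Mfap4 and Mfap2 kept the most of their change. Mfap4 (chromosome 11, 61485431 to 61488900 on GRCm38) encodes a glycoprotein of elastic microfibrils and had the largest change of all 74 genes in MMS D14. Its FPKM was 8.02, 5.78 and 4.93 in the Control samples, 41.3, 46.5 and 17.2 in MMS D3 and 103, 66.7 and 54.6 in MMS D7. It reached 129, 136 and 78.2 in MMS D14 and was 90.2, 69.9 and 54.9 in R1 and 78, 91.7 and 32.7 in R2. No sample of the other groups overlapped Control, and replicate 3 was the lowest sample of its group in all 6 groups. The log2 change was 4.0 in MMS D14, then 3.33 in R1 and 3.24 in R2. Mfap2 (chromosome 4, 141010418 to 141015984), a core component of fibrillin microfibrils, gave 17.8, 21.6 and 15.4 in Control, 83.5, 105 and 80.9 in MMS D14, 92.6, 68.6 and 80.1 in R1 and 89.5, 87.2 and 59.5 in R2. Its R1 samples overlapped those of MMS D14, and 92.2% of the change was kept.

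The small leucine-rich proteoglycans Lum and Aspn were among the most abundant. Lum (lumican, chromosome 10, 97565128 to 97572703), which regulates collagen fibril assembly, had 112, 111 and 111 in Control, 225, 354 and 218 in MMS D3 and 729, 532 and 582 in MMS D7. It had 971, 1208 and 1241 in MMS D14, 506, 321 and 399 in R1 and 439.99, 359.8 and 364 in R2. The R1 and R2 samples lay between Control and MMS D14 without overlap, within the span of MMS D3 and MMS D7. Aspn (asporin, chromosome 13, 49544443 to 49567565), which binds collagen, was 55.6 ± 3.23 in Control (mean ± SD, n = 3 here and below), 61.2 ± 21.8 in MMS D3 and 159 ± 10.7 in MMS D7. Its means were 335 ± 61.7 in MMS D14, then 149.7 ± 33.2 in R1 and 179.6 ± 13.6 in R2.

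Postn and Cilp were high from MMS D3 on. Postn (periostin, chromosome 3, 54361109 to 54391037), a matricellular protein of collagen-rich tissue, gave 75.2, 74.3 and 85.3 in Control, 346, 371 and 198 in MMS D3 and 722, 522 and 1058 in MMS D7. It then gave 952, 896 and 939 in MMS D14, 248, 462 and 211 in R1 and 358, 323 and 269 in R2. The MMS D7 samples spread around those of MMS D14, and all but 1 of the R samples lay within the range of MMS D3. Cilp (cartilage intermediate layer protein, chromosome 9, 65265180 to 65280605) had 27.04 ± 5.53 in Control and 121 ± 28.2, 165 ± 15.9 and 209 ± 20.9 at MMS D3, D7 and D14. It had 105 ± 31.01 in R1 and 72.5 ± 4.67 in R2. Among the other structural genes, Fndc1, with fibronectin type III repeats, went from 34.5 ± 8.15 in Control to 184 ± 17.3 in MMS D14 and 85.1 ± 12.1 in R2. The thrombospondin gene Thbs3 went from 30.6 ± 4.95 to 158 ± 14.6 and was 71.7 ± 9.88 in R2. The changes of Olfml2b, Abi3bp, Itgbl1, Igsf10 and Mamdc2 in MMS D14 were 1.41, 1.57, 2.36, 2.04 and 1.03.

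The matrix enzymes included the matrix metalloproteinases Mmp2 and Mmp3, a cathepsin and a cross-linking enzyme. Mmp2 (gelatinase A, chromosome 8, 92827291 to 92853420) is an enzyme that cleaves denatured collagen and basement membrane. Its FPKM was 126, 127 and 99.4 in Control, 196, 243 and 208 in MMS D3 and 422, 310.1 and 392 in MMS D7. It was 877, 978 and 965 in MMS D14, 709, 405 and 509 in R1 and 620.1, 564 and 416 in R2. The R samples lay around or above those of MMS D7, and no R sample reached MMS D14. Mmp3 (stromelysin 1, chromosome 9, 7445822 to 7455975), which cleaves proteoglycans and activates other metalloproteinases, had 8.80, 5.99 and 4.96 in Control and 51.6, 47.05 and 59.2 in MMS D14. It had 34.2, 23.6 and 30.3 in R1 and 37.4, 35.1 and 18.9 in R2, with 71.8% of the change kept. Ctsk (cathepsin K, chromosome 3, 95499256 to 95509362), a collagen-degrading protease that is also a marker of osteoclasts, went from 79.8 ± 15.6 in Control to 314 ± 46.5 in MMS D14 and was 184 ± 18.6 in R1 and 179 ± 19.96 in R2. Acp5, the other osteoclast marker listed, had 369.5 ± 71.3 in Control and 106 ± 10.7 in MMS D14.

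Pamr1 (chromosome 2, 102550012 to 102643041) encodes a secreted protein with a peptidase-like domain. It gave 21.6, 24.1 and 25.6 in Control, 7.46, 10.3 and 6.82 in MMS D3 and 22.3, 21.4 and 22.9 in MMS D7. It then gave 51.7, 52 and 47.3 in MMS D14, 50.1, 51.01 and 45.3 in R1 and 49.3, 46.1 and 39.8 in R2. The MMS D3 samples lay below all Control samples, and the R1 samples overlapped those of MMS D14. Fap, a membrane serine protease of activated fibroblasts, went from 26.7 ± 4.06 in Control to 85.7 ± 22.5 in MMS D14 and was 62.1 ± 10.9 in R2. Loxl2, a lysyl oxidase homologue that cross-links collagen, went from 43.1 ± 6.68 to 109.6 ± 26.4 and was 63.3 ± 14.4 in R2, where 1 sample fell within the Control range. Cpxm1, a carboxypeptidase-like protein, and the metalloproteinase Adamts16 changed by 2.31 and 1.17 in MMS D14.

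**Figure D3:**
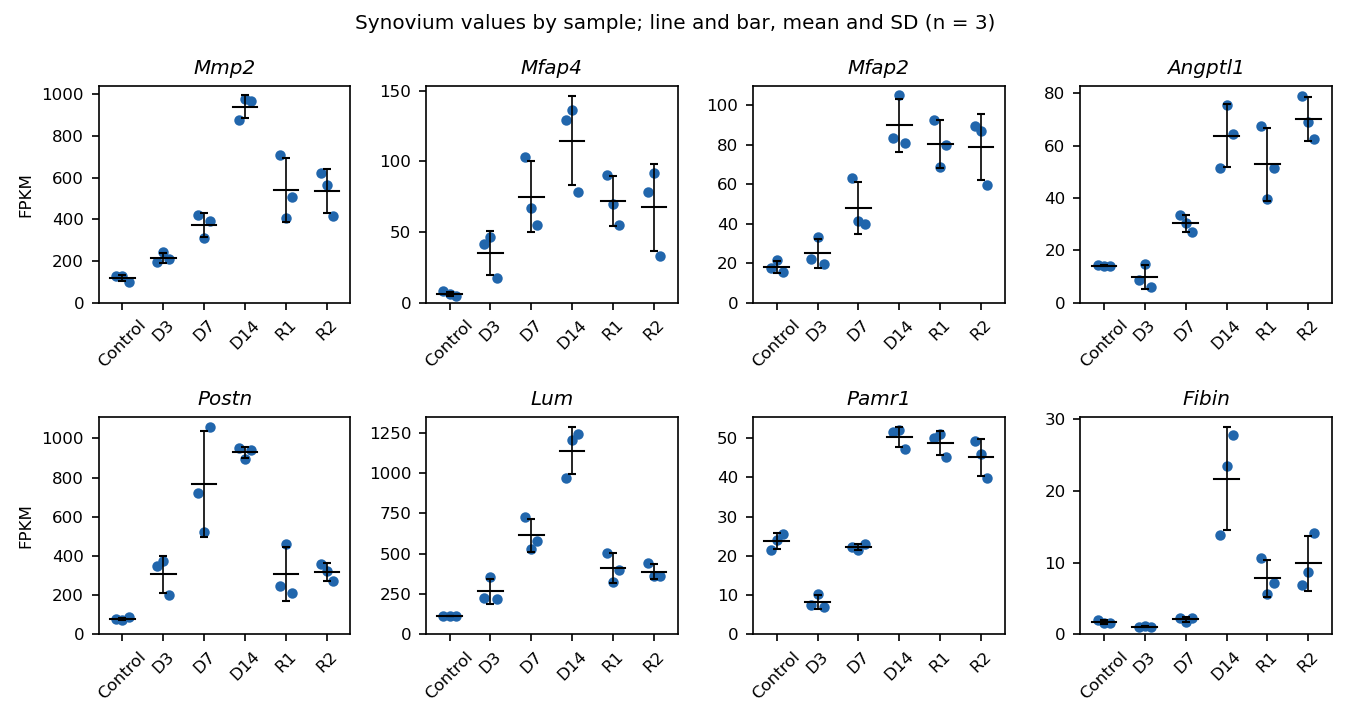
FPKM of 8 of the 74 genes in each synovium sample (points; y axis in FPKM, x axis the 6 groups), with the mean as a line and the SD as a bar (n = 3). Mmp2, Mfap4, Postn and Lum lie between Control and MMS D14 in R1 and R2, while Mfap2, Angptl1 and Pamr1 stay near MMS D14, and Fibin is near the Control level until MMS D7.

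Among the secreted signals, Angptl1 and Ptn had R2 means above those of MMS D14, and Mdk kept 78.4% of its change. Angptl1 (chromosome 1, 156838562 to 156861078), an angiopoietin-like protein, had 14.2, 14.1 and 14.1 in Control, 8.60, 14.6 and 5.83 in MMS D3 and 33.5, 30.5 and 26.9 in MMS D7. It had 51.3, 75.4 and 64.4 in MMS D14, 67.3, 39.5 and 51.6 in R1 and 79.03, 69.2 and 62.5 in R2. R2 overlapped MMS D14, and 97.0% of the change was kept, the highest share of the 74. The heparin-binding growth factors midkine and pleiotrophin, encoded by Mdk (chromosome 2, 91929805 to 91932297) and Ptn (chromosome 6, 36714929 to 36810220), are related in structure. Mdk gave 2.68, 3.77 and 3.66 in Control, 22.3, 29.97 and 34.4 in MMS D14, 20.2, 13.4 and 16.1 in R1 and 24.1, 22.04 and 17.4 in R2. Ptn had 3.80, 5.11 and 6.43 in Control and 11.4, 19.4 and 18.6 in MMS D14. It had 12.2, 8.98 and 11.1 in R1 and 23.5, 17.4 and 13.1 in R2, where its highest single value was found.

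Dkk3, Fibin and C1qtnf6 kept less of their change (55.2%, 60.4% and 50.1%). Dkk3 (chromosome 7, 112116017 to 112159057), a secreted protein of the Dickkopf family whose other members block Wnt signalling, had 8.45, 6.82 and 7.64 in Control and 80.9, 101 and 111 in MMS D14. It had 40.5, 24.4 and 31.5 in R1 and 32.97, 31.03 and 32.4 in R2, well apart from both. Fibin (chromosome 2, 110360917 to 110363183) gave 2, 1.54 and 1.57 in Control, 1.05, 1.12 and 1.01 in MMS D3, 2.22, 1.64 and 2.27 in MMS D7 and 13.9, 23.5 and 27.8 in MMS D14. In R1 it gave 10.7, 5.56 and 7.10 and in R2 6.85, 8.64 and 14.2, and every value of MMS D14, R1 and R2 was above every value of the other groups. C1qtnf6 (chromosome 15, 78523346 to 78531416), of the C1q and TNF related family, went from 20.8 ± 3.31 in Control to 149.7 ± 7.95 in MMS D14 and was 58.8 ± 4.92 in R1 and 54.3 ± 10.1 in R2. Fstl1, a follistatin-like glycoprotein, was the most abundant secreted signal, with 155 ± 7.82 in Control, 472 ± 10.4 in MMS D14 and 307 ± 22.9 in R2. Ssc5d, a soluble scavenger receptor, kept 82.3% of its change, Pdgfrl, a homologue of platelet-derived growth factor receptors, kept 58.7%, and Lrrc17, a leucine-rich repeat protein, 53.2%. Apln, the ligand apelin, kept 75.3%.

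The 26 membrane proteins made up the largest group, and most were of low or middle level. Antxr1 (chromosome 6, 87133853 to 87335821), a receptor for collagen VI that anthrax toxin also uses, had 24.7, 24.5 and 20.04 in Control, 19.1, 27.2 and 14.6 in MMS D3 and 64.3, 52.5 and 61.7 in MMS D7. It had 112, 139 and 130.1 in MMS D14, 73.6, 52.5 and 61.9 in R1 and 79.9, 73.3 and 55.6 in R2, and no R sample overlapped Control or MMS D14. Uts2r (chromosome 11, 121160271 to 121161973), the receptor of the vasoactive peptide urotensin, gave 3.72, 3.97 and 1.06 in Control, 17.8, 15.9 and 12.2 in MMS D14, 21.9, 19.4 and 17.9 in R1 and 13.3, 13.6 and 4.76 in R2. It was the only 1 of the 74 whose R1 mean exceeded that of MMS D14, and its replicate 3 was the lowest sample in all 6 groups. Emb (embigin, chromosome 13, 117208536 to 117274415), a partner of lactate transporters, was 6.36 ± 0.560 in Control, 26.6 ± 4.90 in MMS D3, 37.4 ± 1.49 in MMS D14, then 25.6 ± 2.33 in R1 and 24.7 ± 1.10 in R2. Cd44, the hyaluronan receptor, was 42 ± 2.18 in Control, 118 ± 41.4 in MMS D14 and 71.6 ± 10.6 in R2. Itm2a, an integral membrane protein, was 51.7 ± 6.40, 151 ± 31.6 and 129 ± 17.8 in the same groups.

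The membrane group held 3 integrin alpha chains, which pair with beta chains to bind matrix: Itga5, of the fibronectin receptor, and the collagen-binding Itga10 and Itga11. They changed by 1.51, 1.13 and 1.89 in MMS D14 and kept 51.6%, 60.8% and 67.1%. The Wnt receptors Fzd2 and Fzd8 changed by 1.43 and 1.19. Steap1, a membrane protein of the STEAP family, and Fxyd6, a regulator of the sodium pump, changed by 2.17 and 2.54. The thrombin receptor F2r, the ephrin receptor Ephb3 and the iron exporter Slc40a1 changed by 1.32, 1.63 and 1.24. The other membrane proteins were Tmem119, Cercam, Scarf2, Cd276, Nsg1, Gpm6b, Fam171a2, Shisa4, Glipr1, Cacnb3 and Serinc5, with changes in MMS D14 of 1.20 to 2.45.

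The cytoskeletal genes were Fscn1, which bundles actin, the actin-associated Synpo and Dbn1, Marcksl1 and Gpsm2, with changes of 1.25 to 1.67 in MMS D14. The intracellular group held Socs1, an inhibitor of cytokine signalling, the zinc finger proteins Zfp521 and Zfp469, the RNA-binding protein Mex3b, Ndufa4l2, Agpat4, Fam167a, Fam177a and Parp8, and 2 predicted or unnamed gene models that are counted and not named. Their changes in MMS D14 ran from 1.04 to 1.63. Socs1 had 8.01, 10.3 and 3.68 in Control, 14.8, 17.4 and 19.4 in MMS D14, 8.70, 22.6 and 8.22 in R1 and 13.5, 13.2 and 3.03 in R2. Both R groups overlapped Control for this gene, and 1 R1 sample carried most of the R1 mean. For 1 of the 2 gene models, all 5 libraries of the set described above lay below the other 13.

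Lists of matrix and signalling genes were counted to see where the 74 genes sit among their neighbours. None of the 13 collagen chains in the table belonged to the 74, although 12 of them had a change of at least 1 in MMS D14, and their highest share kept was 49.3%, just under the limit. Of 24 cell cycle genes in the table, 23 were raised by at least 1 and 0 were kept, with a highest share of 19.0% and a median of 8.19%. The growth factor list was the reverse case: 4 of its 15 genes were raised by at least 1 in MMS D14, and all 4, Angptl1, Mdk, Pdgfrl and Ptn, were kept. Of the protease list, 6 of 15 raised genes were kept, of the Wnt list 3 of 8, of the matricellular list 4 of 18, of the microfibril list 2 of 8, of the proteoglycan list 2 of 7 and of the TGF-beta and BMP list 2 of 5. The collagen processing list had 1 of 11 (Loxl2), the tendon list 1 of 6 (Cilp) and the complement list 1 of 1 (C1qtnf6). The chemokine list had 0 of 5 and the actin list 0 of 6. These counts follow from the rule and were not tested, and 25% of all raised genes were kept.

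The genes whose course over the 18 samples was most like the mean course of the 74 (mean z-score of log2 values) were Cacnb3, a calcium channel subunit (Pearson r = 0.98), Tmem119 (0.98), Igsf10 (0.97), Mmp2 (0.96) and Thbs3 (0.96). All 5 are among the 74 and so helped to form the mean. Over the 74 genes r ran from 0.47 to 0.98. The 18 points share the same tables, libraries and normalisation, so these values are a description.

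Sequence upstream of an annotated transcript start was read for the genes with an entry in the RefSeq promoter table (GRCm38.p6), which held 52 windows for 47 of the 74. Windows of 250 bases before the start were searched on both strands for 5 short motifs. The AP-1 motif TGACTCA, the site of Fos and Jun proteins, was in 5 of 52 windows (9.62%), against 4.46% of all 32851 windows. The TEAD core GGAATG was in 9.62% against 12.6%, the TATA box TATAAA in 11.5% against 12.4%, and CCAAT in 34.6% against 33.8%. The GC box GGGCGG was in 51.9% against 32.7%. These are matches of letters, not binding sites, and no test was made. The windows of Mmp3 and C1qtnf6 are shown because each holds the AP-1 motif, and that of Postn because it holds a TATA box close to the start. Each is written 5′ to 3′ on the gene's strand, and capitals mark matches to the AP-1 motif on either strand and to the TATA box.
Mmp3: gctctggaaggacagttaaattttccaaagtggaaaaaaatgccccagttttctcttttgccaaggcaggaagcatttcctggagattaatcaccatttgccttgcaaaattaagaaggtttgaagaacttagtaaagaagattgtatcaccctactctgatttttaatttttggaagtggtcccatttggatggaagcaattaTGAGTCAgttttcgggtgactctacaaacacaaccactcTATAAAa
C1qtnf6: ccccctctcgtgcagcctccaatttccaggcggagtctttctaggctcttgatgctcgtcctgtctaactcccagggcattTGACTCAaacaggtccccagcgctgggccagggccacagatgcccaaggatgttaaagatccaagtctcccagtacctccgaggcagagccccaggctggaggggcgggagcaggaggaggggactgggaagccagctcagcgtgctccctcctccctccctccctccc
Postn: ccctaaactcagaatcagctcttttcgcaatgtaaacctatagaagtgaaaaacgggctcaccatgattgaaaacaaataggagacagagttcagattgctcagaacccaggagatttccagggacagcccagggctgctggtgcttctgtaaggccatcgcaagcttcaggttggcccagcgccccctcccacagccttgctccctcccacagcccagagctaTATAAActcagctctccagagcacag
The Mmp3 window is chr9:7445572-7445821 on the plus strand, with the AP-1 match starting 46 bases and the TATA match 7 bases before the annotated start. The C1qtnf6 window is chr15:78529652-78529901 on the minus strand, with the AP-1 match 169 bases before the start. This start lies inside the extent of the gene given above and is not its outermost one. The Postn window is chr3:54360857-54361106 on the plus strand, with the TATA match 26 bases before the start.

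Whether the 74 genes moved between MMS D3 and MMS D7 is the comparison whose change is independent of their choice. No sample of these groups entered the rule. The spread behind the p-values was estimated over all groups, those used by the rule among them, so the calls are not fully independent. A fit of only the 2 groups is given below. In MMS D7, 45 of the 74 genes were higher than in MMS D3 and 0 were lower (limma, Benjamini-Hochberg adjusted p under 0.05 over all genes of the table), where 12.1% of the table was higher and 18.3% lower. Of the 222 genes raised but not kept, 85 were higher. The median log2 change was 0.75 over the 74, 0.51 over the 222 and -0.22 over the whole table. By group, 12 of 13 structural genes rose, 9 of 11 secreted signals, 5 of 8 enzymes, 13 of 26 membrane proteins, 2 of 5 cytoskeletal genes and 4 of 11 others.

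The largest of these rises was in Angptl1, from 9.68 ± 4.49 to 30.3 ± 3.29 (log2 change 1.63, SE 0.25, limma adjusted p = 0.000440), with every MMS D7 sample above every MMS D3 sample. Antxr1 rose from 20.3 ± 6.39 to 59.5 ± 6.22 (log2 change 1.54, SE 0.20, limma adjusted p = 0.000308) and Thbs3 from 31.5 ± 9.28 to 85.5 ± 19.1 (log2 change 1.44, limma adjusted p = 0.000364). Pamr1 had the smallest adjusted p of the 74 in limma (6.32e-05), rising from 8.19 ± 1.84 to 22.2 ± 0.738, close to the Control level of 23.7 ± 2.02. The rises of Adamts16 (1.44), Aspn (1.43), Mamdc2 (1.36) and Loxl2 (1.35) were of like size, and the groups did not overlap for any of these 8 genes. All 8 kept their call under each of the 14 alternatives tried. Genes without a call included Mmp3 (0.61, limma adjusted p = 0.126), Cilp (0.47, 0.0952), Ctsk (0.20, 0.442) and Emb (0.08, 0.670). The median log2 change of the 74 from the Control mean was 0.54, 0.52 and -0.00097 in the 3 MMS D3 samples and 1.17, 1.01 and 1.08 in the 3 MMS D7 samples, so MMS D3 replicate 3, of the set of 5 that stands apart, was the lowest. The count of 45 fell to 29 without the 5 libraries that stand apart, to 28 without MMS D3 replicate 3 and to 28 in a fit of only the 2 groups.

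**Figure D4:**
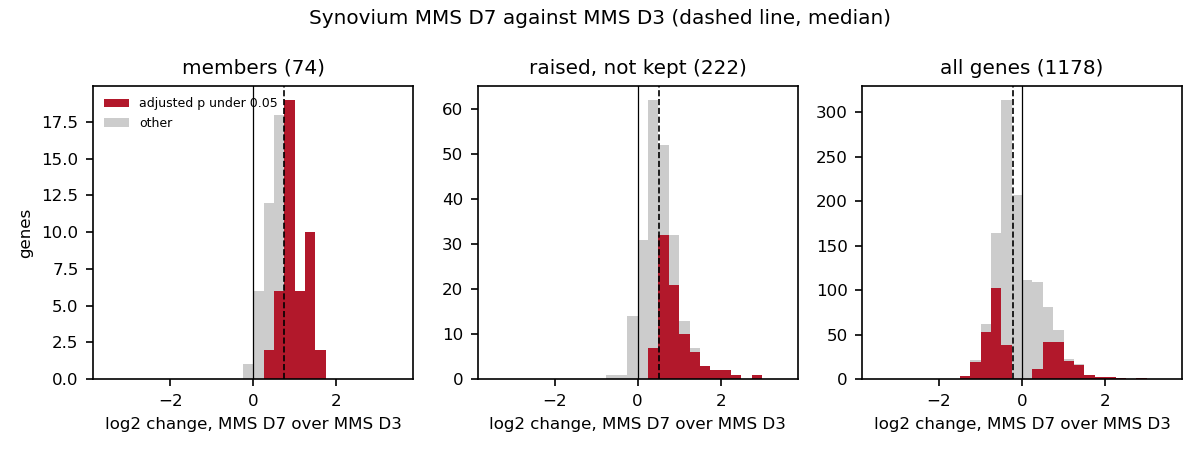
Histograms of the log2 change from MMS D3 to MMS D7 (x axis; y axis, number of genes) for the 74 genes, the 222 raised but not kept and all 1178, with calls at an adjusted p under 0.05 in red, no change as a solid line and the median dashed. The medians are 0.75, 0.51 and -0.22.

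Against Control, the early groups show which of the 74 were already higher and which were not. These comparisons share the Control samples with the rule, so a low Control value that helped a gene in also raises its change here. In MMS D3, 25 of the 74 were higher and 4 lower (limma), where 16.3% of the table was higher and 39.6% lower. Of the 222 raised but not kept, 146 were higher and 1 was lower, and the median change was 0.39 for the 74 against 0.80 for the 222. The highest rises in MMS D3 were in Mfap4 (2.22), Cilp (2.12), Emb (1.90), Postn (1.90), Mmp3 (1.68), Steap1 (1.64), Fxyd6 (1.59) and C1qtnf6 (1.32), with limma adjusted p-values of 3.01e-07 to 0.000409. For Emb the MMS D3 mean was already 26.6 ± 4.90, against 37.4 ± 1.49 in MMS D14.

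The 4 genes that fell in MMS D3 before they were high in MMS D14 were Mamdc2, Pamr1, Adamts16 and Agpat4. Mamdc2 (chromosome 19, 23302609 to 23448442), a secreted proteoglycan with MAM domains, had 13.6, 11.9 and 9.77 in Control and 2.98, 2.84 and 4.95 in MMS D3, a log2 change of -1.49 (SE 0.20, limma adjusted p = 3.15e-05). It then had 10.2, 10.7 and 10.7 in MMS D7, 23.4, 25.9 and 26.2 in MMS D14, 30.1, 17.1 and 21.1 in R1 and 20.5, 18.3 and 19.3 in R2. Pamr1 changed by -1.44 (SE 0.15, limma adjusted p = 1.49e-06) with no overlap between the groups. Adamts16 changed by -0.95 (limma adjusted p = 0.0152, 0.000711 to 0.0570 over its alternatives) and lost its call without Control replicate 1 (0.0570), Control replicate 2 (0.0552) or MMS D3 replicate 3 (0.0547). Agpat4, an enzyme of phospholipid synthesis, changed by -0.52 (limma adjusted p = 0.0432, 0.00726 to 0.208 over its alternatives), with overlapping groups, and lost its call in 8 of 14 alternatives, among them every one that left out 1 library except MMS D3 replicate 1.

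In MMS D7, 63 of the 74 were higher than Control and 0 lower (limma), where 24.1% of the table was higher and 61.6% lower. Of the 222 raised but not kept, 210 were higher. The highest rises were in Mfap4 (3.36), Postn (3.22), Cilp (2.58), Lum (2.44), Mmp3 (2.29), Dkk3 (2.29), C1qtnf6 (2.27) and Fxyd6 (2.14), with limma adjusted p-values of 1.09e-07 to 9.54e-06. Genes without a call in MMS D7 included Pamr1 (-0.09, limma adjusted p = 0.568), Mamdc2 (-0.13, 0.530), Fibin (0.17, 0.545), Ndufa4l2 (0.31, 0.285) and Itga10 (0.31, 0.104). For Fibin the 3 MMS D7 samples had at most 2.27 FPKM, next to at least 13.9 in MMS D14.

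R2 and R1 were then compared with each other, since the rule used the mean of their changes and not the difference. None of the 74 was called (limma), nor was any gene of the table (0% higher, 0% lower), and the smallest adjusted p of the 74 was 0.769. At an unadjusted p under 0.05 there were 6 of the 74, 4 of them higher in R2, against 29 genes higher and 23 lower of all 1178. The log2 changes of the 74 ran from -0.96 in Uts2r to 0.92 in Fam177a. R2 means were above R1 means in 40 of the 74, near the 51.4% of the whole table. With n = 3 a group and these spreads, the p-values do not show that the 2 groups are alike. Without the 5 libraries that stand apart, Slc40a1, the iron exporter ferroportin, was called higher in R2 (log2 change 0.86, limma adjusted p = 0.0264). This alternative was chosen after seeing the data and leaves out replicate 3 of R2. The number of calls over the whole table in it is not given, so nothing is read from this call. The Slc40a1 values were 3.26, 2.59 and 2.96 in R1 and 6.52, 5.80 and 4.87 in R2, with no overlap. In the fit of all samples its change was 0.77 (limma adjusted p = 0.769).

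Cartilage samples took no part in the choice, and 26 of the 74 genes are listed in the cartilage table, whose values are a signal of unstated unit. Cartilage levels are therefore not set against synovium levels. At MMS D14, 12 of the 26 were higher and 7 lower than Control (limma), where 25.5% of the cartilage table was higher and 28% lower. Of the genes raised but not kept in synovium, 55 are listed, with 23 higher and 9 lower. The structural genes split, with 5 of 7 higher and 2 lower, while 3 of the 4 enzymes were higher.

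Aspn had a cartilage signal of 2.54 and 4.20 in the Control samples and 32.4 and 23.9 in MMS D14 (log2 change 2.75, SE 0.59, limma adjusted p = 0.00263). Postn had 10.4 and 11.2 in Control and 71.5 and 50.7 in MMS D14 (log2 change 2.38, limma adjusted p = 0.00131). Mmp2 had 41.1 and 45.2 in Control and 181 and 147 in MMS D14 (log2 change 1.89, limma adjusted p = 0.00334). In all of these the MMS D14 samples were above the Control samples. Fndc1 (2.22), Fstl1 (1.81), Antxr1 (1.81), Mmp3 (1.80) and Lum (1.63) rose as well, and the calls of these 8 genes held under each of the 10 alternatives tried.

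Cilp went the other way in cartilage, where its product is a matrix protein of the intermediate layer. Its signal was 1881 and 1393 in Control, 1757 and 1565 in MMS D3, 555 and 931 in MMS D7 and 421 and 343 in MMS D14. It was 495 and 419 in MMS D28, 1044 and 1162 in R1 and 1006 and 1536 in R2. The MMS D14 samples were far below Control (log2 change -2.09, SE 0.27, limma adjusted p = 7.87e-05), and the R2 samples overlapped it. Abi3bp, an extracellular matrix protein, fell from 36.7 and 30 to 13.98 and 14.4 (log2 change -1.17, limma adjusted p = 0.00398). The Wnt receptor gene Fzd8 (-0.81) and the collagen-binding integrin gene Itga10 (-0.80) also fell. The calls of Ndufa4l2 (-0.96), Fibin (-0.86) and Pdgfrl (-0.67), likewise lower, were lost without Control replicate 1 (limma adjusted p = 0.102, 0.0797 and 0.213) and without MMS D14 replicate 2 (0.0897, 0.0710 and 0.204).

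**Figure D5:**
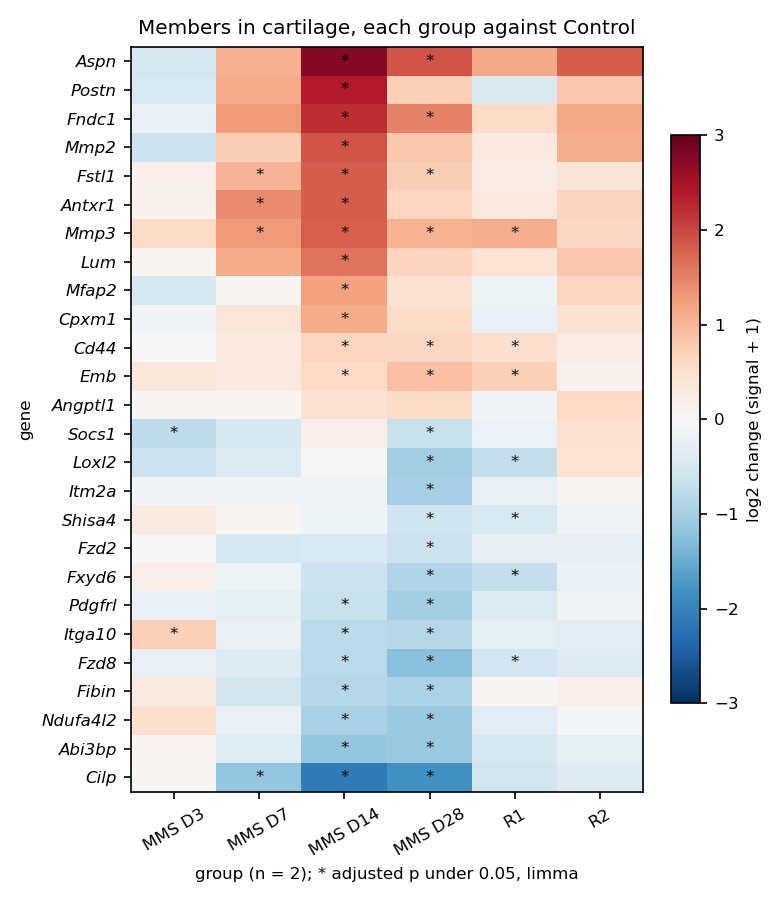
Log2 change of signal + 1 from Control in cartilage (colour) for the 26 genes listed there (rows), in each of 6 groups (columns, n = 2), with a star for a limma adjusted p under 0.05. The upper 12 rows, from Aspn to Emb, carry stars for a rise in MMS D14, and Cilp is the lowest in MMS D7 and MMS D14.

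At MMS D3 in cartilage, Itga10 was higher (0.70, limma adjusted p = 0.00826) and Socs1 lower (-0.77, 0.0177), 1 of 26 in each direction, where 12.9% of the table was higher and 11% lower. Leaving out Control replicate 2 or MMS D3 replicate 2 ended the Itga10 call (0.0817 and 0.0753), and leaving out either Control library or MMS D3 replicate 1 ended that of Socs1 (0.101, 0.0590 and 0.123). At MMS D7, Antxr1 (1.42), Mmp3 (1.29) and Fstl1 (1.02) were higher and Cilp lower (-1.17, limma adjusted p = 0.00782), where 6.79% of the table was higher and 15.6% lower. Each of these 4 calls was lost when 1 of the 4 libraries compared was left out: Antxr1 and Mmp3 without Control replicate 2 (limma adjusted p = 0.0607 and 0.151) or MMS D7 replicate 1 (0.0614 and 0.200), Cilp without Control replicate 1 (0.0773) or MMS D7 replicate 1 (0.0819), and Fstl1 without any 1 of the 4 (0.0699 to 0.119). Without MMS D7 replicate 2, 2 genes were lower.

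MMS D28 was measured in cartilage alone, and 42.7% of that table was higher and 54.6% lower there. Of the 26 genes, 6 were higher (Aspn, Fndc1, Mmp3, Emb, Fstl1 and Cd44) and 13 lower, the largest fall being that of Cilp (-1.83, limma adjusted p = 0.000181). Of the 6 higher genes, Aspn and Fndc1 differed most between the 2 MMS D28 libraries, where Aspn gave 5.52 and 37.7 and Fndc1 3.08 and 18.6. Cd44, by contrast, gave 74.8 and 71.3, and Emb 112 and 88.8. Without MMS D28 replicate 1 the number higher was 13, without replicate 2 it was 2, and without Control replicate 1 it was 3. In R1, Mmp3 (1.10), Emb (0.72) and Cd44 (0.49) were higher and Loxl2, Fxyd6, Fzd8 and Shisa4 lower (-0.45 to -0.72), where 36% of the table was higher and 33.3% lower. Without R1 replicate 2 there were 1 higher and 0 lower. The number lower was 1 without R1 replicate 1, 1 without Control replicate 1, 2 without Control replicate 2, and 1 with each sample centred on its median. Emb rose from 49.3 and 57.5 to 84.3 and 92.95 (limma adjusted p = 0.00335) and kept its call under all 10 alternatives. In R2, 0 of the 26 were called in either direction (limma), where 0.0623% of the table was higher and 0.685% lower. An unadjusted limma p under 0.05 was found for 4 of the 26, 3 of them higher, against 87 genes higher and 164 lower of all 1606. The 2 R2 libraries differed for some genes, with 34.6 and 10.8 for Postn and 127 and 67.3 for Mmp2. For Cd44 they gave 54.8 and 54.9.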

How the data were processed

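RNA of synovium and cartilage was extracted with Trizol and libraries were made at BGI, per the labels' protocols, and HISAT2 alignment to mm10 is given in the submitters' processing notes. The authors deposited FPKM values for 1178 synovium genes and, for 1606 cartilage genes, a signal in a unit that is not named. How the authors counted reads and selected genes is not given in the sources used here. No depth, counting interval or detection limit could be derived.

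Tests used log2(value + 1), with all groups of a tissue in 1 fit (limma 3.58.1, R 4.3.3, trend in the variance) and Benjamini-Hochberg adjustment over all genes of the table. An adjusted p under 0.05 was called. The filter, a minimum value of 1 in a group's number of samples, and every other setting were varied as described in the closing section. The fit was tested on simulated data. Positions are from GENCODE vM21 (GRCm38).

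The 74 genes, the gene lists and the tests were chosen with earlier results of these data known. Genes named with tests are those of highest level, of largest change, of highest or lowest share kept, next to a limit, in a gene list, or most changed in a comparison (8 a direction). Other genes of the 74 are named to complete their group. Nothing in the labels pairs replicates across groups, and none were paired.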

Additional observations from a re-analysis of the deposited data

Results flagged for a closer look

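Over MMS D3 and MMS D7, whose synovium samples the choice of the genes did not use, there were 9 cases in which every sample of 1 tissue lay on one side of its Control samples and every sample of the other tissue on the opposite side, at the same time point. MMS D14, R1 and R2 were not counted, since the choice used their synovium samples. The difference between the tissues was not tested, and the 2 tables were normalised separately. These cases come from the 26 genes listed in both tables. The share over all genes listed in both is not given, so nothing is read from their number. The choice did use the synovium Control samples, and cartilage has only n = 2 per group. In cartilage, only Itga10 at MMS D3 and Cilp at MMS D7 were called. The others had limma adjusted p-values of 0.0811 to 0.856 there. At MMS D3 the log2 change from Control was -0.62 in cartilage and 0.88 in synovium for Mmp2, -0.46 and 1.90 for Postn, and 0.70 and -0.37 for Itga10. At MMS D7 it was -1.17 in cartilage and 2.58 in synovium for Cilp, -0.51 and 1.01 for Fzd2, -0.48 and 0.69 for Socs1, -0.39 and 0.59 for Fzd8, -0.36 and 0.71 for Abi3bp, and -0.075 and 0.85 for Itm2a.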

How the results depend on the processing

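No direction was reversed under any alternative, and 48 of the 70 named results were called under all of theirs. The number of genes the rule gives was 123 at a share of 40%, 38 at 60% and 26 with a minimum log2 change of 2. It was 64 with each sample centred on its median (63 of them shared), 69 without the 5 libraries that stand apart (64 shared, an alternative chosen after seeing the data), and 61 to 85 with 1 library left out. For MMS D7 against MMS D3 the number of the 74 called higher was 28 with only the groups compared, 29 without the 5 libraries, and 28 to 54 with 1 library left out. For MMS D3 against Control, leaving out 1 library gave 20 to 34 higher and 2 to 5 lower, and for MMS D7 against Control 57 to 63 higher. For R2 against R1, 1 gene was called higher without the 5 libraries, and the number over the whole table is not given. In cartilage, a fit of only the groups compared called 5 lower in MMS D3, 8 higher and 2 lower in MMS D7, and 6 higher and 9 lower in R1, and centring left 1 lower in R1. Leaving out 1 library gave 0 to 1 higher and 0 to 1 lower in MMS D3, 0 to 2 and 0 to 2 in MMS D7, 9 to 12 and 4 to 8 in MMS D14, 2 to 13 and 9 to 13 in MMS D28, and 1 to 3 and 0 to 2 in R1. With n = 2, leaving out 1 library leaves a lone sample, assumed to vary like the other groups. The cause of these shifts was not tested. No pairing was assumed, since the labels give none and not every same-numbered pair had a correlation over 0.1 (26 of 45 pairs in synovium, 12 of 42 in cartilage). In synovium 11 of 18 samples correlated best with their own number, a hint from the data and not the design, and in cartilage 0 of 14 did. With the replicate number as a block, 53 of the 74 were called higher in MMS D7 against MMS D3. In that fit 29 were higher and 6 lower in MMS D3 against Control, and 63 higher in MMS D7 against Control. The share of the whole table called under each alternative is not given, so nothing about the 74 is read from these shifts. The unknown depth, the selected genes and the few samples per group limit what these tables can show.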
